A study of Mus musculus with 15 samples.

Results

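The genes described here are Ddr1 and Ddr2, the 2 discoidin domain receptors of the mouse. Their members on the array were all probe sets, groups of short probes that read 1 stretch of a transcript, whose gene symbol in the platform annotation was Ddr1 or Ddr2. There were 10 such probe sets among 45037, 8 for Ddr1 and 2 for Ddr2, and no probe set listed either gene beside another symbol. All 10 are given, and no filter on low values was applied.

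Discoidin domain receptors are receptor tyrosine kinases whose ligand is collagen, a protein of the extracellular matrix, rather than a soluble growth factor. They bind native triple-helical collagen through an extracellular discoidin domain and signal slowly and for long after binding. DDR1 is known mainly from epithelial cells and binds fibrillar collagens and the basement membrane collagen IV, while DDR2 is known mainly from fibroblasts and other connective tissue cells and binds fibrillar collagens. The study is known for examining DDR1, together with Notch signalling, as a target in K-Ras-driven lung adenocarcinoma, and the question here is how the RNA of each receptor stood in early lesions.

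Expression was measured on 15 Affymetrix arrays of cells cut from frozen lung sections by laser capture microdissection. The arrays held 3 H1 hyperplastic lesions, 4 H2 hyperplastic lesions, together 7 lesions of about 500 cells each, and 8 samples of normal lung cells from the same sections. All samples came from K-RasG12V knock-in mice whose lungs had received Cre by adenovirus 3 months earlier, so that the normal cells came from lungs with the same allele and the same infection. Expression of the oncogene was marked by a colour reporter on the allele. The labels leave out the cell types that the virus reached, the criteria that set H1 apart from H2, the number and age of the mice, and the samples that shared one. Regions of 1 mouse are not independent, so every p-value below may be too small where samples of a group share a mouse, or too large where samples of both groups do. In captured tissue, fewer cells of a type and less RNA per cell cannot be told apart.

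The values are log2 signals, on which a difference of 1 is a 2-fold change. The median probe set averaged 3.99 over the arrays, and no call of presence or absence was made for a probe set. Arrays differed in the spread of their signals, measured as the standard deviation (SD) over all probe sets of an array. It lay between 1.26 and 1.41 in H1, between 1.42 and 1.68 in H2 and between 1.10 and 1.62 in normal cells. The markers of alveolar type 2 cells, which make surfactant, were present in all groups. Of 12 such genes 11 were measured, and the mean of all 11 in each group lay above that median signal. Differences were tested with limma over all 45037 probe sets, and a probe set was called at a Benjamini-Hochberg adjusted p under 0.05. The value after ± is the SD for a level and the standard error (SE) for a difference.

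Ddr1 lies on chromosome 17, at chr17:35681567-35704741 of the GRCm38.p6 build, and Ddr2 on chromosome 1, at chr1:169972307-170110836. In RefSeq's promoter windows, which run from 250 bases before to 50 bases after a transcript start, Ddr1 had 4 starts and Ddr2 had 1. One window of each gene is shown 5′ to 3′ on the minus strand, the strand of both genes. Notch2 and the AP-1 subunit Fosl2 were among the genes whose signal was most like that of Ddr1 probe sets, as given further on. A link between these genes and the windows was not tested. The capitals mark TGAGTCA, a sequence bound by AP-1, CAGGTG, an E-box bound by Zeb and Snail repressors, and TGGGAA, the core bound by the Notch partner RBPJ, searched on both strands.
Ddr1 chr17:35701995-35702294: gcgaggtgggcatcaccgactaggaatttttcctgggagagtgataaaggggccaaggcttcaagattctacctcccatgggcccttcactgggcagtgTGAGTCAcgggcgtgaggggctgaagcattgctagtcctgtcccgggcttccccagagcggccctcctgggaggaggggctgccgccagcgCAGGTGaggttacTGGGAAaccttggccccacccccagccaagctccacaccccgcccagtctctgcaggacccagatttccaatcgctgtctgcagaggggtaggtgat
Ddr2 chr1:170088895-170089194: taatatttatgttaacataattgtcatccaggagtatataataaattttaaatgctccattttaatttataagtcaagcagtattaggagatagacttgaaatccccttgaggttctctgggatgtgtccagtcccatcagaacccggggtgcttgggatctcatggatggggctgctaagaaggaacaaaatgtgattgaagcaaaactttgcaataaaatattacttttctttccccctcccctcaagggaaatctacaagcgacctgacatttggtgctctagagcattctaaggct
The Ddr1 window held 1 copy of each, starting 151, 60 and 47 bases before the transcript start in that order, with no overlap between them. The other 3 Ddr1 windows and the Ddr2 window held none of them. Of 32851 such windows, 5.20% held TGAGTCA or its reverse complement, 20.2% held CAGGTG, 25.6% held TGGGAA and 0.35% held all 3. These motifs were chosen after the windows had been read, and the Ddr1 window shown was the only 1 of 4 with a match. The shares above are therefore descriptions and give no measure of chance. A match is no evidence of binding, and the arrays did not measure which start was used.

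The 8 Ddr1 probe sets fell into those that varied strongly between arrays and those that varied less. The probe sets 1435820_x_at, 1456226_x_at, 1439382_x_at and 1437619_x_at went up and down together, with Pearson's r between 0.84 and 0.98 for each pair over the 15 arrays and between 0.73 and 0.97 after the mean of each group had been removed. Their signals spanned 4.15, 5.26, 3.903 and 2.72 log2 units over the arrays in that order. The other 4, 1438367_x_at, 1415797_at, 1415798_at and 1459990_at, spanned 2.32, 0.82, 0.95 and 1.12, and their r with 1435820_x_at was 0.24, 0.23, -0.52 and -0.70. These correlations are descriptions over arrays that also share their spread of signals. The suffix _x_at was carried by 5 of the 8, among them all 4 that varied together. It is the manufacturer's mark for a probe set with probes that can also match other transcripts. What part of a signal came from Ddr1 was not measured. The 2 Ddr2 probe sets had an r of 0.10 with each other.

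**Figure D1:**
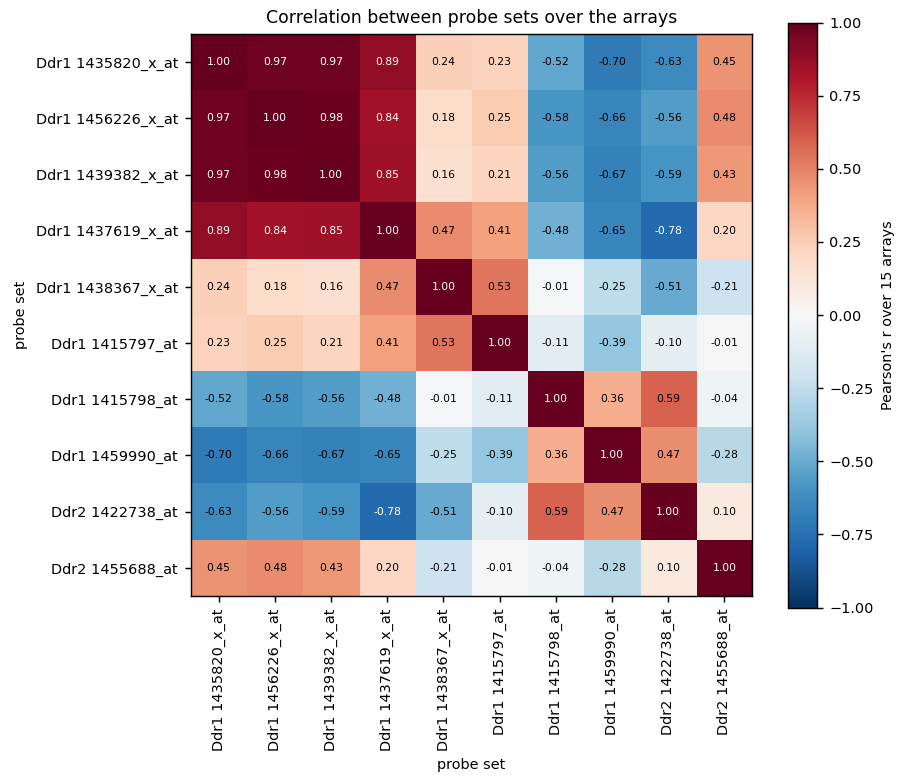
Pearson's r over the 15 arrays between each pair of the 10 probe sets, in a grid with 1 row and 1 column per probe set (red positive, blue negative). The first 4 Ddr1 probe sets form a block of values from 0.84 to 0.98, and the other probe sets lie outside it.

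The brightest Ddr1 probe set, 1435820_x_at, stood for the gene where 1 probe set was needed. In H1 its log2 signals were 5.70, 6.00 and 6.05. In H2 they were 7.97, 7.62, 8.14 and 8.18. In normal cells they were 7.67, 4.05, 6.91, 4.03, 6.80, 7.75, 5.27 and 4.50. All 4 H2 lesions were above all 3 H1 lesions, and the normal samples spread from below H1 up into the range of H2. The SD was 0.19 in H1, 0.25 in H2 and 1.59 in normal cells.

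The probe set 1456226_x_at had the widest range. Its signals were 5.27, 5.60 and 5.90 in H1 and 8.26, 7.79, 8.54 and 8.43 in H2. In normal cells they were 7.76, 3.43, 6.96, 4.25, 6.77, 7.93, 5.95 and 3.28. The pattern was that of 1435820_x_at, with H2 above H1 and normal samples on both sides of H1. Normal replicates 1 and 6 were the highest normal samples on all 4 of the probe sets that varied together.

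On 1439382_x_at the signals were 2.95, 3.81 and 3.71 in H1 and 5.40, 5.11, 5.83 and 5.58 in H2, and in normal cells they ran from 1.93 to 5.29 with a median of 3.89. On 1437619_x_at, a dim probe set, they were 2.57, 2.53 and 2.64 in H1 and 3.74, 4.18, 4.28 and 4.00 in H2, and in normal cells they ran from 1.56 to 4.17 with a median of 2.87. On both, each H2 lesion was again above each H1 lesion and within or just above the upper part of the normal range.

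The remaining Ddr1 probe sets did not separate the lesions in this way. On 1415797_at the signals lay between 5.08 and 5.15 in H1, between 5.15 and 5.33 in H2 and between 4.73 and 5.55 in normal cells. On 1415798_at they lay between 4.20 and 4.73 in H1, between 3.88 and 4.50 in H2 and between 4.29 and 4.83 in normal cells. On 1438367_x_at they lay between 4.20 and 4.73 in H1, between 4.34 and 5.98 in H2 and between 3.72 and 6.04 in normal cells. On 1459990_at they lay between 4.70 and 5.07 in H1, between 4.37 and 4.83 in H2 and between 4.53 and 5.49 in normal cells. All 4 of these had overlapping ranges in every pair of groups.

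Ddr2 was read by a probe set of moderate and by one of low signal. On 1455688_at, the brighter, the signals were 5.32, 4.66 and 4.44 in H1, 6.05, 4.63, 4.63 and 6.21 in H2, and 5.00, 4.11, 6.89, 4.99, 4.92, 5.59, 5.25 and 4.63 in normal cells. The highest signal was that of normal replicate 3, and the ranges of the 3 groups overlapped. On 1422738_at the signals were 4.98, 4.59 and 4.16 in H1, 4.20, 3.35, 3.92 and 4.12 in H2, and 4.33, 4.50, 4.48, 5.33, 4.13, 4.17, 4.59 and 4.20 in normal cells. Here H2 lay at the low end, and its highest value reached into both other groups.

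**Figure D2:**
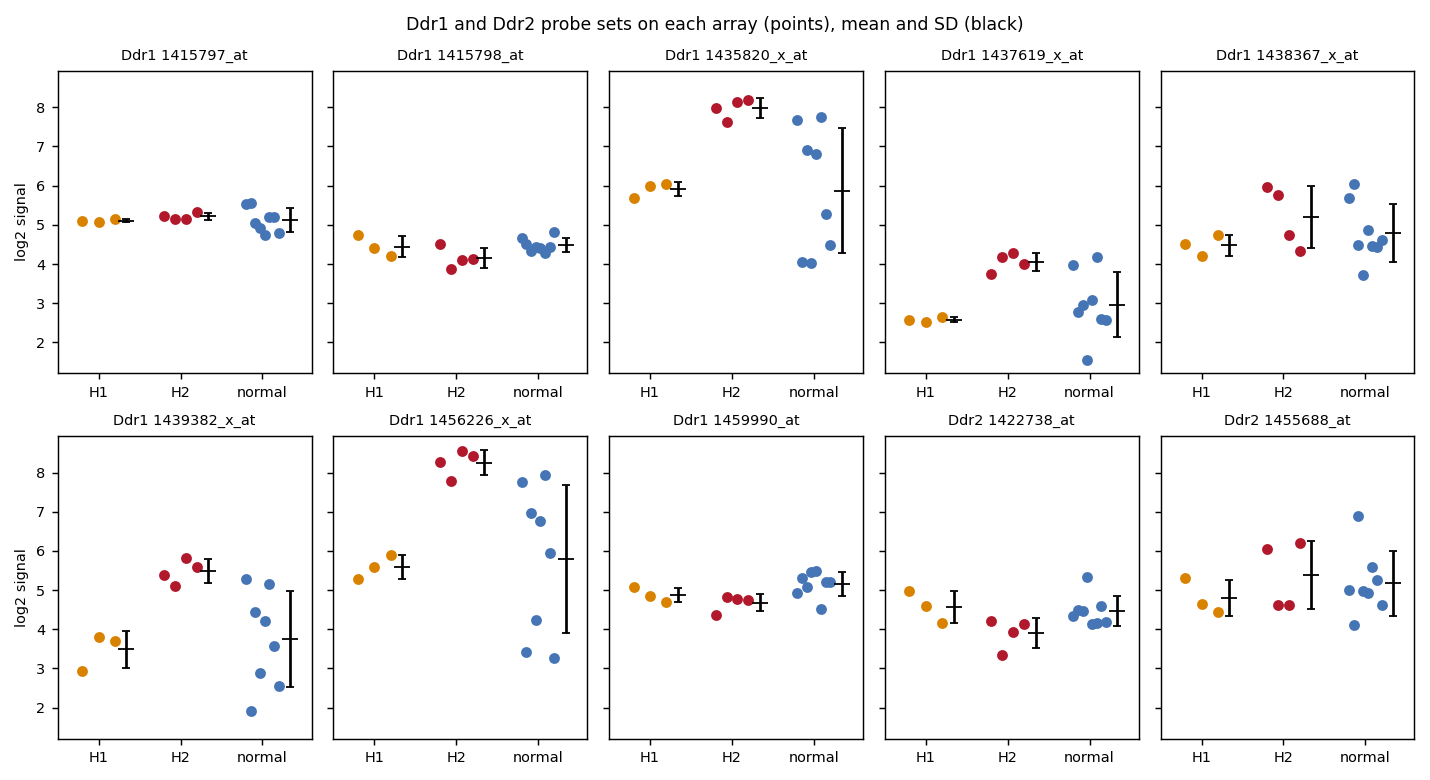
Log2 signal of each Ddr1 and Ddr2 probe set (1 panel each) on every array, with H1, H2 and normal cells from left to right. Points are arrays, and the black bar is the group's mean with its SD. On 4 Ddr1 panels the H2 points, for example 7.62 to 8.18 on 1435820_x_at, lie above all H1 points, while the normal points spread over both.

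H2 lesions were compared with normal cells first. Of the 8 Ddr1 probe sets 6 averaged higher in H2, 4 of them by over 1 log2 unit, but none of them passed the threshold over all probe sets. The probe set 1435820_x_at averaged 7.98 ± 0.25 in H2 (n = 4) and 5.87 ± 1.59 in normal cells (n = 8), a difference of 2.11 ± 0.66, or 4.31-fold (95% interval of the log2 difference 0.71 to 3.51, limma adjusted p = 0.106). The probe set 1456226_x_at averaged 8.26 ± 0.33 in H2 and 5.79 ± 1.89 in normal cells, a difference of 2.47 ± 0.78 (limma adjusted p = 0.110). The difference was 1.73 ± 0.53 on 1439382_x_at (limma adjusted p = 0.0996) and 1.09 ± 0.36 on 1437619_x_at (limma adjusted p = 0.125). On these probe sets 2 or 3 of the 4 H2 lesions exceeded every normal sample.

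The other Ddr1 probe sets, which include every one without the suffix _x_at, had smaller differences of both signs in H2. They were 0.42 ± 0.39 on 1438367_x_at, 0.10 ± 0.18 on 1415797_at, -0.33 ± 0.17 on 1415798_at and -0.47 ± 0.19 on 1459990_at, with limma adjusted p from 0.212 to 0.810. Ddr2 differed by 0.21 ± 0.43 on 1455688_at (95% interval -0.71 to 1.13) and by -0.56 ± 0.24 on 1422738_at (95% interval -1.08 to -0.04). The limma adjusted p-values were 0.833 and 0.229.

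In all, limma called 0 of the 8 Ddr1 and 0 of the 2 Ddr2 probe sets in H2 against normal cells, where it called 2.04% of all probe sets. At an unadjusted p under 0.05 there were 4 Ddr1 probe sets higher, 1 Ddr1 probe set lower and 1 Ddr2 probe set lower, where the whole table had 9.89% higher and 8.99% lower. The 4 probe sets vary together and count as 1 observation rather than 4. The mean of all 8 Ddr1 probe sets differed by 0.89 in H2 against normal cells (limma adjusted p = 0.102). With limma's array weights, which give less weight to arrays that depart from their group, the same 4 Ddr1 probe sets were called (adjusted p from 0.0247 to 0.0398), in a fit that called 3225 of the 45037 probe sets, against 919 without weights. Without normal replicate 1, in a fit that called 1619, the members called numbered 2, 1435820_x_at (2.36, adjusted p = 0.0497) and 1439382_x_at (1.95, adjusted p = 0.0424). In the other settings 0 members were called, with differences above and below that of the main fit. With median centring 1435820_x_at differed by 2.20 (limma adjusted p = 0.0928). With repeated quantile normalization it differed by 1.60 (limma adjusted p = 0.239).

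H1 lesions were then compared with normal cells. On 1435820_x_at the mean was 5.91 ± 0.19 in H1 (n = 3) and 5.87 ± 1.59 in normal cells (n = 8), a difference of 0.04 ± 0.73. Its 95% interval, -1.50 to 1.59, runs from 0.353-fold to 3.01-fold, so changes of either sign within these bounds were not excluded. The other 7 Ddr1 probe sets had differences between -0.38 and -0.02. Ddr2 differed by -0.37 ± 0.48 on 1455688_at and by 0.11 ± 0.27 on 1422738_at. By limma 0 of the 10 probe sets were called (adjusted p = 0.999 for each), where 0.00222% of all probe sets were, and 0 of the 10 had an unadjusted p under 0.05, where 3.84% of all did.

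H1 and H2 lesions were compared directly, a contrast that does not take its means from the normal samples. The labels do not say whether these same array signals set H1 apart from H2. If they did, p-values and separation that rest on the split would be no independent test. On 1435820_x_at H1 averaged 5.91 ± 0.19 (n = 3) and H2 7.98 ± 0.25 (n = 4), a difference of -2.07 ± 0.82 (95% interval -3.81 to -0.32, limma adjusted p = 0.380). The difference was -2.66 ± 0.98 on 1456226_x_at, -1.99 ± 0.66 on 1439382_x_at and -1.47 ± 0.45 on 1437619_x_at, with limma adjusted p from 0.343 to 0.358. On these 4 probe sets every H1 value was below every H2 value, as on 8.09% of all probe sets. The other 4 Ddr1 probe sets differed by -0.73 to 0.29.

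For Ddr2 the difference between H1 and H2 was -0.57 ± 0.54 on 1455688_at and 0.68 ± 0.31 on 1422738_at (limma adjusted p = 0.692 and 0.421), so the 2 probe sets had opposite signs. By limma 0 of the 10 probe sets and 0% of all probe sets were called between the lesion types, while 5 of the 10 and 11.5% of all had an unadjusted p under 0.05. The spread that this test uses is shared over all 15 arrays and includes that of the normal samples. In a fit on the 7 lesion arrays alone the difference of 1435820_x_at was the same and its adjusted p was 0.0575, still above the threshold.

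**Figure D3:**
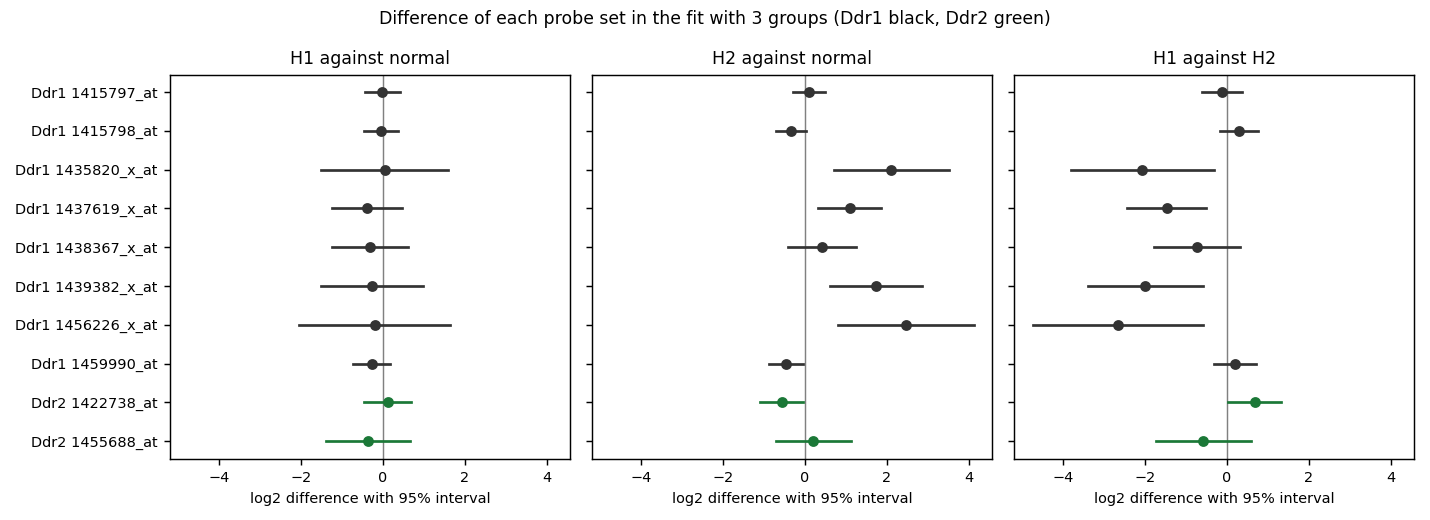
Log2 difference of each probe set (rows) in the fit with 3 groups, with H1 over normal on the left, H2 over normal in the middle and H1 over H2 on the right, with its 95% interval (bars), Ddr1 in black and Ddr2 in green. The 4 Ddr1 probe sets that vary together have intervals above 0 in the panel of H2 against normal and below 0 in the panel of H1 against H2, while all intervals include 0 for H1 against normal. No probe set passed after adjustment over all probe sets.

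With both lesion types in 1 group, the 7 lesions averaged 7.09 ± 1.12 and the 8 normal samples 5.87 ± 1.59 on 1435820_x_at, a difference of 1.22 ± 0.64 (limma adjusted p = 0.505). Of the 10 probe sets limma called 0, where it called 0.169% of all, and 1 had an unadjusted p under 0.05, where 11.1% of all did. That was Ddr1 1459990_at, at -0.38 ± 0.16 (limma adjusted p = 0.402). Ddr2 differed by -0.04 ± 0.37 on 1455688_at and by -0.27 ± 0.23 on 1422738_at.

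Several measures of the arrays moved with the signal of the brightest Ddr1 probe set. Over the 15 arrays, 1435820_x_at had a Pearson's r of 0.81 with the spread of the array, 0.86 with the mean of 9 macrophage markers, 0.79 with that of 10 general epithelial markers, 0.74 with that of the 11 alveolar type 2 markers and 0.19 with that of 12 fibroblast markers. Without the 2 arrays farthest from the median of the measure, the r was 0.73 for spread, 0.76 for macrophage, 0.69 for epithelial and 0.57 for alveolar type 2 markers. Among the 8 normal samples alone the r was 0.76 for spread, 0.90 for macrophage, 0.74 for epithelial, 0.69 for alveolar type 2, 0.55 for fibroblast, 0.78 for endothelial and 0.77 for alveolar type 1 markers. The relations were not those of every Ddr1 probe set. Over the 15 arrays 1459990_at had an r of -0.83 with macrophage markers, -0.66 with epithelial markers and -0.56 with spread, and 1415797_at had 0.38 with macrophage markers, 0.20 with spread and 0.003 with alveolar type 2 markers. These are descriptions, since all measures of an array share its RNA and its amplification.

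The same measures differed between the groups. The mean log2 signal of the alveolar type 2 markers lay between 7.35 and 9.01 in H1, between 8.35 and 9.69 in H2 and between 4.77 and 9.52 in normal cells, and all 11 had a higher mean in H2 than in H1 or in normal cells. The mean of the macrophage markers lay between 4.66 and 5.29 in H1, between 5.02 and 5.55 in H2 and between 3.89 and 5.45 in normal cells, and 6 of the 9 had a higher mean in H2 than in normal cells. The mean of the general epithelial markers lay between 4.97 and 5.58 in H1, between 5.67 and 6.14 in H2 and between 4.05 and 5.44 in normal cells, so that each H2 array was above every H1 and normal array, and 7 of the 10 had a higher mean in H2 than in normal cells. Of the defining macrophage markers, Chil3 averaged 7.92 in H1, 9.002 in H2 and 7.16 in normal cells, while Marco averaged 3.98, 3.86 and 4.31 in the same groups. Their part in the Ddr1 result was not tested. With array spread as a covariate in the fit, the difference of 1435820_x_at was 0.87 for H2 against normal cells and -0.93 for H1 against H2. With the 3′ minus 5′ difference of the Actb control probe sets, which varies with RNA length, as the covariate, the values were 1.31 and -1.18. That Actb difference lay between -1.21 and -0.04 in H1, between -0.29 and 0.25 in H2 and between -1.60 and -0.03 in normal cells. Its r with 1435820_x_at was 0.70 over the 15 arrays and 0.47 without the 2 arrays farthest from its median. Its part in the Ddr1 result was not tested either.

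For Ddr2 the relations differed between the probe sets. On 1455688_at the r with the mean of the 12 fibroblast markers was 0.70 over the 15 arrays. It was 0.32 without the 2 arrays farthest from the median of the markers, so the size of r depends on those arrays. Spearman's rank correlation over the 15 arrays was 0.62. Within the 8 normal samples it was 0.96, and 0.89 without the 2 farthest, but r there was nearly as high with alveolar type 2 markers (0.90), endothelial markers (0.89), array spread (0.88) and alveolar type 1 markers (0.86). Normal replicate 3, with the highest Ddr2 signal of 6.89, was the highest normal array on all of these measures, with a mean of fibroblast markers of 6.23. On 1422738_at the r over the 15 arrays was 0.18 with fibroblast markers, -0.59 with macrophage markers and -0.66 with the 3′ minus 5′ difference of Actb. The mean of the fibroblast markers lay between 4.63 and 4.83 in H1, between 4.66 and 4.95 in H2 and between 4.60 and 6.23 in normal cells.

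**Figure D4:**
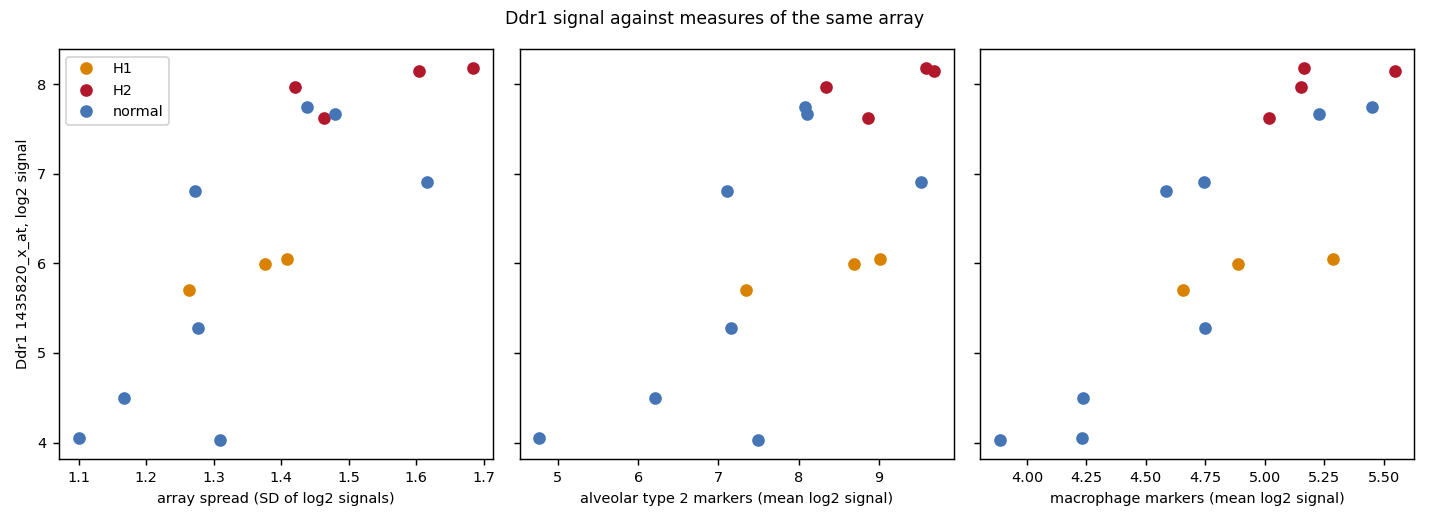
Log2 signal of Ddr1 1435820_x_at (vertical) on each array against the array's spread, the mean log2 signal of alveolar type 2 markers and that of macrophage markers (panels), coloured by group. The H2 arrays, at 7.62 to 8.18, lie at the top with normal replicates 1 and 6, and the 3 normal arrays with a Ddr1 signal under 5 have the lowest macrophage means, 3.89 to 4.23.

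Genes whose signal was most like that of the receptors were found by Pearson's r over the 15 arrays among the 5620 other genes with a mean signal of at least 5. For 1435820_x_at they were Sptssa, a small subunit of the enzyme that starts sphingolipid synthesis (r = 0.96), Pdpr, a regulator of pyruvate dehydrogenase phosphatase (0.96), Mknk2, a kinase downstream of ERK and p38 (0.95), the Notch receptor Notch2 (0.95) and the dynein subunit Dync1i2 (0.95). With group means removed, the r of these 5 lay between 0.92 and 0.94. For 1456226_x_at they were Pcnp (0.96), Notch2 (0.95), Pdpr (0.95), Fosl2 (0.95) and Mknk2 (0.95), so that Notch2, Pdpr and Mknk2 were in both lists.

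The steady Ddr1 probe set 1415797_at had other and less close neighbours, Mapkbp1 (0.80), Rnf215 (0.73), Wdr35 (0.72), Mtf2 (0.66) and Cdk9 (0.65). For Ddr2, 1455688_at was most like Kank1, an adaptor between focal adhesions and the cell cortex (0.93), then Sar1a, a small GTPase of vesicle export from the endoplasmic reticulum (0.83), Susd5 (0.83), Rabepk (0.81) and Hsd17b7 (0.81). With so many genes and only 15 arrays of unequal spread, a high r is found for many genes, and these names describe likeness only.

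Collagens are the ligands of both receptors, and each gene below is read from its brightest probe set. In H2 against normal cells, 1 of 11 fibrillar collagens was called and was higher, where 2.73% of all genes were called in either direction. It was Col1a2, a chain of collagen I, which averaged 7.09 ± 0.65 in H2 and 5.52 ± 0.74 in normal cells and rose by 1.57 ± 0.37, or 2.98-fold (limma adjusted p = 0.0422, 2 of its 3 probe sets higher). The differences of Col3a1 (1.99 ± 0.74), Col5a2 (1.69 ± 0.63) and Col1a1 (1.68 ± 0.54) did not pass (limma adjusted p from 0.113 to 0.168). The median over the 11 genes was 0.28, beside -0.04 over all genes.

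Of the 12 basement membrane and network collagens, 0 were called by limma in H2 and 4 had an unadjusted p under 0.05, where 21.6% of all genes did. They were Col4a1 at 1.59 ± 0.55 and Col4a2 at 0.85 ± 0.28, the main chains of collagen IV, Col8a1 at 1.34 ± 0.55 and Col8a2 at -0.60 ± 0.25 (limma adjusted p from 0.118 to 0.208). The median was 0.12. In H1 against normal cells 0 of the 11 and 0 of the 12 collagens were called by limma, where 0.0055% of all genes were, with 0 at an unadjusted p under 0.05 in either list, where 4.28% of all genes were, and medians of 0.15 and -0.16, beside -0.05 over all genes. Between H1 and H2, 0 collagens and 0% of all genes were called by limma. The 2 collagens with an unadjusted p under 0.05, where 12.5% of all genes had one, were Col1a2 at -1.17 ± 0.46 and Col27a1 at -0.65 ± 0.30.

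Other receptors for collagen include integrins and the urokinase-associated receptor Mrc2. Limma called 2.73% of all genes in H2, 0.0055% in H1 and 0% between H1 and H2, and 0.169% of all probe sets for lesions. Of 9 of these collagen receptors measured, it called 0 in each comparison. In H2 against normal cells the lowest p-values were those of Adgrg1, an adhesion receptor that binds collagen III, at 0.92 ± 0.28 (limma adjusted p = 0.0992), and of the collagen-binding integrin chains Itga10 at -0.80 ± 0.31 and Itga2 at -0.69 ± 0.30. In H1 the lowest was that of Mrc2, at -0.53 ± 0.20.

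Of 15 adaptors and early signalling proteins of the receptors, limma called 0 in each comparison, and 13 had a higher mean in H2 than in normal cells, with a median of 0.67 (0.21 with the mean of each gene's probe sets). At an unadjusted p under 0.05 there were 4 of them, where 21.6% of all genes were past it, the adaptors Grb2 at 0.66 ± 0.19 (limma adjusted p = 0.0821) and Crk at 1.95 ± 0.88, the lipid kinase Pik3ca at 1.39 ± 0.52 and the phosphatase Ptpn6 at -0.50 ± 0.24. Shc1, which binds the juxtamembrane region of DDR1, differed by 0.70 ± 0.56 in H1. In H1 the median of the 15 was -0.007, and between H1 and H2 it was -0.73 (-0.14 with the mean of probe sets), with Grb2 at -0.79 ± 0.24 and Nck1 at -1.34 ± 0.50.

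Of 15 binding partners and sheddases, 1 was called in H2, where 2.73% of all genes were. It was Cdh1, the epithelial cadherin, with which DDR1 forms a complex at cell junctions. It averaged 8.05 ± 0.43 in H2 and 6.16 ± 0.85 in normal cells and rose by 1.88 ± 0.39, or 3.69-fold (limma adjusted p = 0.0242), on its single probe set. Adam10, the protease that sheds DDR1, differed by 1.75 ± 0.53 (limma adjusted p = 0.0946), but only 1 of its 4 probe sets was higher. The non-muscle myosin Myh10 was at -1.31 ± 0.48. In H1, Cdh1 differed by 1.14 ± 0.43 (limma adjusted p = 0.999).

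Of 17 measured genes reported downstream of the receptors, limma called 0 in each comparison. Over all genes it called 2.73% in H2, 0.0055% in H1 and 0% between H1 and H2. For lesions the share is over all probe sets, 0.169%. The lowest p-values in H2 were those of the Notch ligand Jag1, at 1.67 ± 0.44 (limma adjusted p = 0.0642, 2 of 3 probe sets higher), and of the survival gene Bcl2l1, at 0.49 ± 0.22. Between H1 and H2, Jag1 differed by -1.48 ± 0.55.

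Among 56 receptor tyrosine kinases measured, the 2 receptors included, the difference of Ddr1 1435820_x_at ranked 4 in H2 against normal cells and that of Ddr2 1455688_at ranked 18, counted from the highest. In H1 against normal cells the ranks were 25 and 47. Between H1 and H2, Ddr1 ranked 56, the lowest of all, and Ddr2 ranked 45. These ranks are those of each gene's brightest probe set, which for Ddr1 carries the suffix _x_at. The mean of all 8 Ddr1 probe sets differed by less, 0.89 in H2 against normal cells and -1.07 between H1 and H2. The Ddr1 probe sets without the suffix differed by -0.47 to 0.10 in H2 against normal cells. Of the other 54 kinases, limma called 3 in H2, where it called 2.73% of all genes. Met, the receptor of hepatocyte growth factor, rose by 3.35 ± 0.76 and averaged 8.89 ± 0.46 in H2 and 5.53 ± 1.80 in normal cells (limma adjusted p = 0.0345). Ros1 rose by 1.97 ± 0.45 (limma adjusted p = 0.0375) and the ephrin receptor Epha5 fell by 1.38 on the log2 scale (limma adjusted p = 0.039, with 2 of its 4 probe sets higher). As on the Ddr1 probe sets, the normal samples spread widely on Met.

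**Figure D5:**
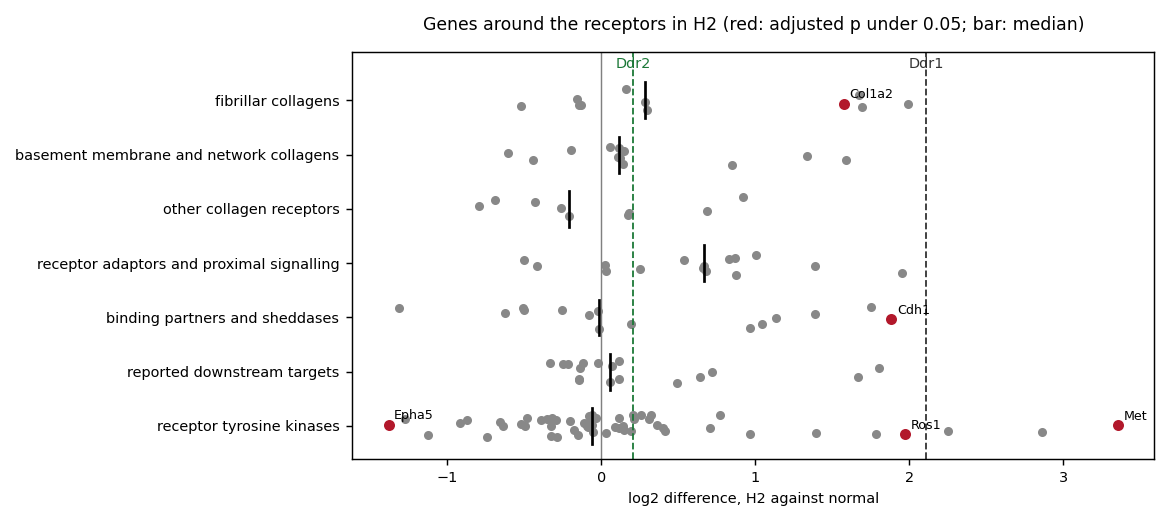
Log2 difference in H2 against normal cells of each measured gene (points) in 7 lists around the receptors, with the median of a list as a black bar, genes called by limma in red with their names, and dashed lines at the values of Ddr1 1435820_x_at (2.11) and Ddr2 1455688_at (0.21). Called genes are Col1a2, Cdh1, Met, Ros1 and Epha5.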

How the data were processed

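Gene expression was measured in 15 samples of microdissected mouse lung cells. Per the labels' protocols, a PicoPure kit gave the RNA, which the WT-Ovation One-Direct system amplified. Each deposited value is the log2 signal of a probe set, and the submitters' processing notes name affy and RMA, which corrects the background, normalizes probes by quantiles and summarises them, with no version. Quantile normalization equalises probes, not probe set summaries.

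Of 45101 rows, 64 array controls were left out. Members were found by symbol in the platform annotation. Differences were tested with limma 3.58.1 (R 4.3.3) on all 45037 probe sets, with 3 groups sharing 1 spread, or 2 groups for lesions against normal, and adjusted by Benjamini-Hochberg within a comparison. Intervals are 95% and unadjusted. The fit was tested on simulated data. For lists, the brightest of a gene's probe sets stood for it (18193 genes). The number of arrays limits the precision.

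Named were all members, called or lowest-p genes of each list (up to 4), and the 5 genes most like a receptor's brightest probe set or another with a mean of at least 5. Members and lists were chosen with earlier results of these data known. The titles' replicate numbers were not used as pairs in the main fits. Whether samples of the same number share a mouse is not in the labels. Alternatives changed the scaling, filter, prior, weights, covariates, gene summary and arrays used.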

Additional observations from a re-analysis of the deposited data

Results flagged for a closer look

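Of 30 combinations of a probe set and a group, 2 held an array set apart from the others of its group by Dixon's test at its 95% critical value, where chance gives about 5%. On Ddr1 1459990_at, H2 replicate 1 had a signal of 4.37, the lowest of the 4 H2 arrays, with the next at 4.76. On Ddr2 1422738_at, normal replicate 4 had a signal of 5.33, the highest of the 8 normal arrays, with the next at 4.59.

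On Ddr1 1437619_x_at all H1 arrays lay below the mean of the normal arrays, 2.96, and all H2 arrays above it. The difference of H1 minus H2 was -1.47, and limma's test of it gave an adjusted p of 0.343.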

How the results depend on the processing

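Over 12 alternatives and 15 fits without 1 array each, 0 of the 10 probe sets were called for lesions against normal, H1 against normal or H1 against H2, and for H2 against normal probe sets were called in 2 of the 27. Array weights gave 4 called (Ddr1 1435820_x_at at 2.25, adjusted p = 0.0312), and the fit without normal replicate 1 gave 2, so that the range over single arrays left out was 0 to 2. Over those fits Ddr1 1435820_x_at lay between 1.84 and 2.38 for H2 against normal (adjusted p from 0.0497 to 0.223). Over the 12 alternatives it lay between 0.87 and 2.25 (limma adjusted p from 0.0312 to 0.549). The replicate numbers gave 7 pairs whose deviations correlated between -0.32 and 0.49, and the replicate block gave 2.04 for Ddr1 1435820_x_at in H2 against normal (adjusted p = 0.102), changed no call of a member and gave 142 called probe sets for lesions against normal. Of 412 values of single members under the alternatives, 17 turned their sign, and the largest main difference among those was 0.57 in size. The main fits called 0 of the 10 members, so a called member could not turn.

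Ddr1 1435820_x_at in H1 against normal was -0.18 with the mean of the gene's probe sets, -0.0589 with array spread as a covariate and -0.49 with normal replicates 2 and 8, whose spread was narrowest, left out. That omission moved 1456226_x_at to -1.01, against -0.20, and 1439382_x_at to -0.77, against -0.26, with no call. Ddr2 1455688_at was 0.0353 with median centring for lesions, -0.18 (probe set mean), -0.47 (spread), -0.0769 (Actb covariate) and -0.0609 (2 normal arrays left out) for H2 against normal, and 0.0515 (probe set mean) and 0.0542 (spread) for H1 against H2. Ddr1 1415797_at in H1 against normal was 0.0397 with median centring, 0.0355 with array weights and 0.000334 without the 2 normal arrays. Ddr1 1415798_at there was 0.0101 with median centring, 0.00184 with repeated quantile normalization and 0.0154 without the 2 normal arrays. Ddr1 1459990_at in H1 against H2 was -0.0485 with the Actb covariate.

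With 1 array left out, values ran from -0.22 to 0.31 (Ddr1 1435820_x_at, H1 against normal), -0.0701 to 0.46 (Ddr2 1455688_at, H2 against normal), -0.22 to 0.21 (the same, lesions), -0.0712 to 0.0466 (Ddr1 1415797_at, H1 against normal), -0.00684 to 0.11 (the same, lesions), -0.19 to 0.0792 (1415798_at, H1 against normal), -0.0759 to 0.28 (1438367_x_at, lesions), -0.52 to 0.00787 (1439382_x_at, H1 against normal), -0.56 to 0.11 (1456226_x_at, H1 against normal) and -0.0892 to 0.32 (Ddr2 1422738_at, H1 against normal).

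Called probe sets numbered 76 for lesions against normal, 1 for H1, 919 for H2 and 0 for H1 against H2. For lesions they were 148 with repeated quantile normalization, 228 with array weights, 121 with the mean of H1 and H2, 134 with spread, 35 without the 2 normal arrays and 19 to 340 with 1 array left out. For H1 against normal they were 2 with 1 probe set a gene, 0 with probe set means, 19 with weights, 21 with spread, 2 with the Actb covariate, 3 without the 2 normal arrays and 1 to 3 with 1 left out. For H2 against normal they were 409 (quantile), 475 (probe set means), 3225 (weights), 502 (the 2 groups alone), 347 (spread), 84 (Actb), 421 (2 normal arrays left out) and 204 to 2129 with 1 left out. For H1 against H2 they were 1 with 1 probe set a gene, 76 with weights, 1 without the 2 normal arrays and 0 to 1 with 1 left out. The cause of these changes was not tested.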
